A study of Mus musculus with 8 samples.

Results

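The transcripts described here mark T cells and natural killer (NK) cells: Gzma, Gzmb, Prf1, Nkg7 and Klrd1 for cytotoxic and NK cells, and Cd3d, Cd3e, Cd3g, Cd8a and Cd4 for the T cell receptor complex and its co-receptors. Members were the probe sets whose single gene symbol in the platform annotation was 1 of these 10 names, which gave 16 of the 45101 probe sets on the array and 10 of the 18193 genes tested. All 10 genes were measured, and none was removed by a filter. Gene expression was profiled on 8 one-colour arrays in the 4T1.2 model, a clonal mouse mammary carcinoma line that spreads spontaneously to bone in syngeneic Balb/c mice. The 4 primary arrays hold RNA from mammary gland tumours and the 4 metastasis arrays RNA from matched spine tumours, so that replicate numbers 1 to 4 stand for 4 mice. The labels describe the material as isolated tumour epithelial cells and do not name a sort, gate or other means of isolation. No treatment or genotype separated the groups, the ages of the animals were not stated, and the mice kept their own immune cells.

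Cytotoxic T cells and NK cells kill target cells by releasing granules that hold perforin, which opens the target membrane, and granzymes, serine proteases that enter through it. The CD3 gamma, delta and epsilon chains are the signalling subunits that carry the T cell receptor at the cell surface, and CD4 and CD8 are the co-receptors that bind MHC class II and class I. NK cells carry the granule machinery and receptors such as CD94, encoded by Klrd1, without a surface T cell receptor. The comparison therefore sets genes shared by killer cells of both kinds beside genes of T cells, in bone metastases against primary tumours.

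Sequences upstream of 4 members are shown because these genes split in their array patterns. Gzma parted the tissues without overlap, whereas Gzmb, Cd3d and Cd3g overlapped between tissues. All 4 genes were highest among primary tumours on array 1. Each sequence is the 250 bases before the annotated start of the gene, from RefSeq on GRCm38.p6, on the strand of the gene. Capitals mark the letters of 3 searched motifs, read on both strands: the Runx core TGTGGT, the Ets core AGGAAG and the T-box core TCACAC.
Gzma, chr13:113100982-113101231, minus strand: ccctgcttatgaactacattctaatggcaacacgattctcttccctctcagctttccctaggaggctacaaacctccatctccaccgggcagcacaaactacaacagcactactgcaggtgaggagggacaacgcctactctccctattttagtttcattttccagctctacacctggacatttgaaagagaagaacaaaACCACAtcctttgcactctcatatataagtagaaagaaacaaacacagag
Gzmb, chr14:56262335-56262584, minus strand: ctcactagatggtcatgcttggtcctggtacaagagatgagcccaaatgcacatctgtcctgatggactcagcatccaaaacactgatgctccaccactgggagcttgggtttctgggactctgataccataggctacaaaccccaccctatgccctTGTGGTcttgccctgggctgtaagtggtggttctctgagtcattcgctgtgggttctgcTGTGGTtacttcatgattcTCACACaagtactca
Cd3d, chr9:44981536-44981785, plus strand: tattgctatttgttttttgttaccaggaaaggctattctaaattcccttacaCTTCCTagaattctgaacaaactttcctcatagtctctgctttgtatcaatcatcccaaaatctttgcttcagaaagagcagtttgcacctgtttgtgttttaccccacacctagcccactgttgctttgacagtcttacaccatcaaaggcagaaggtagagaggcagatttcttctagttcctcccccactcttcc
Cd3g, chr9:44980432-44980681, minus strand: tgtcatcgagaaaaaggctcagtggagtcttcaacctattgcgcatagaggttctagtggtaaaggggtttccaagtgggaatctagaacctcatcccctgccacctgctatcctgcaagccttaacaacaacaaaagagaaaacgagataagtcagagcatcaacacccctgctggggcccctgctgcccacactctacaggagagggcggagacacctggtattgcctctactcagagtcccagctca

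Promoter windows were matched for 8 of the 10 members, and Klrd1 and Cd4 had none. The Runx letters stood in all 4 windows of the cytotoxic and NK class (Gzma, Gzmb, Prf1 and Nkg7) and in 0 of the 4 windows of the T cell receptor and co-receptor class (Cd3d, Cd3e, Cd3g and Cd8a), beside 14% of 32851 windows of the same length. The Ets letters stood in 2 windows of each class, beside 29.5% of all windows, and the T-box letters in 2 and 0, beside 12.3%. Of the 4 genes with Runx letters only Gzma was called higher in metastases by its brightest probe set, as described below, so the letters did not follow the calls. A match in these letters is a description of the sequence and not a binding site. Cd3d and Cd3g lie head to head on chromosome 9, with 1355 bases between their start sites.

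The arrays differed in more than tissue. The signal of the actin control was lower at the 5' than at the 3' probe set by 1.08 to 1.90 log2 units in primary and by 4.55 to 6.18 log2 units in metastasis samples (exact permutation test over 8 arrays, two-sided, p = 0.0286, the smallest this design allows; n = 4 per group), and Gapdh gave the same p. Krt8, a keratin of the luminal epithelium, lay between 13.07 and 13.32 on the primary arrays, but at 7.34, 12.39, 9.80 and 12.97 on metastasis arrays 1 to 4. Krt18 had the same order there, but Cdh1 was lowest on array 4 (5.74) and Epcam ran only from 8.34 to 9.35. These 3 genes were named after their values were seen. Macrophage markers averaged 11.24 to 12.14 on primary arrays and neutrophil markers 9.75 to 10.73 on metastasis arrays. No array thus held epithelial signal alone, and low Krt8 on metastasis arrays 1 and 3 does not make the others pure. Over 18193 genes limma called 1768 higher and 2207 lower in metastases at an adjusted p under 0.05, 55.5% of the calls being lower. Leaving out arrays or mice moved these counts to 697 to 2119 higher and 708 to 2719 lower, both lowest without mouse 3. After scaling to the 75th percentile of each array 36.3% of calls were lower, and the median difference over all genes moved from 0.09 to 0.41, so small differences depend on the scaling. In bulk RNA, fewer cells of a type and less RNA per cell cannot be told apart.

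Bone metastases had higher signals of Gzma and Klrd1 than their matched primary tumours, and no call was made for any of the other 8 members. The actin and Gapdh drops also parted the tissues without overlap, so tissue and the state of the RNA cannot be told apart for any member. Gzma was 4.56-fold and Klrd1 4.23-fold higher in metastases (n = 4 per group), and both were higher in all 4 mice. Both belong to the cytotoxic and NK class, of which 2 of 5 members were called higher and 0 lower, with a median log2 difference of 0.57. In the T cell receptor and co-receptor class 0 of 5 members were called in either direction, with 0 at an unadjusted p under 0.05 by limma and a median of 0.02. Over all genes 9.72% were called higher and 12.1% lower, with a median difference of 0.09. The median over all 10 members was 0.35. Whether the classes differ was not tested, since a score over chosen members has no test here.

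**Figure D1:**
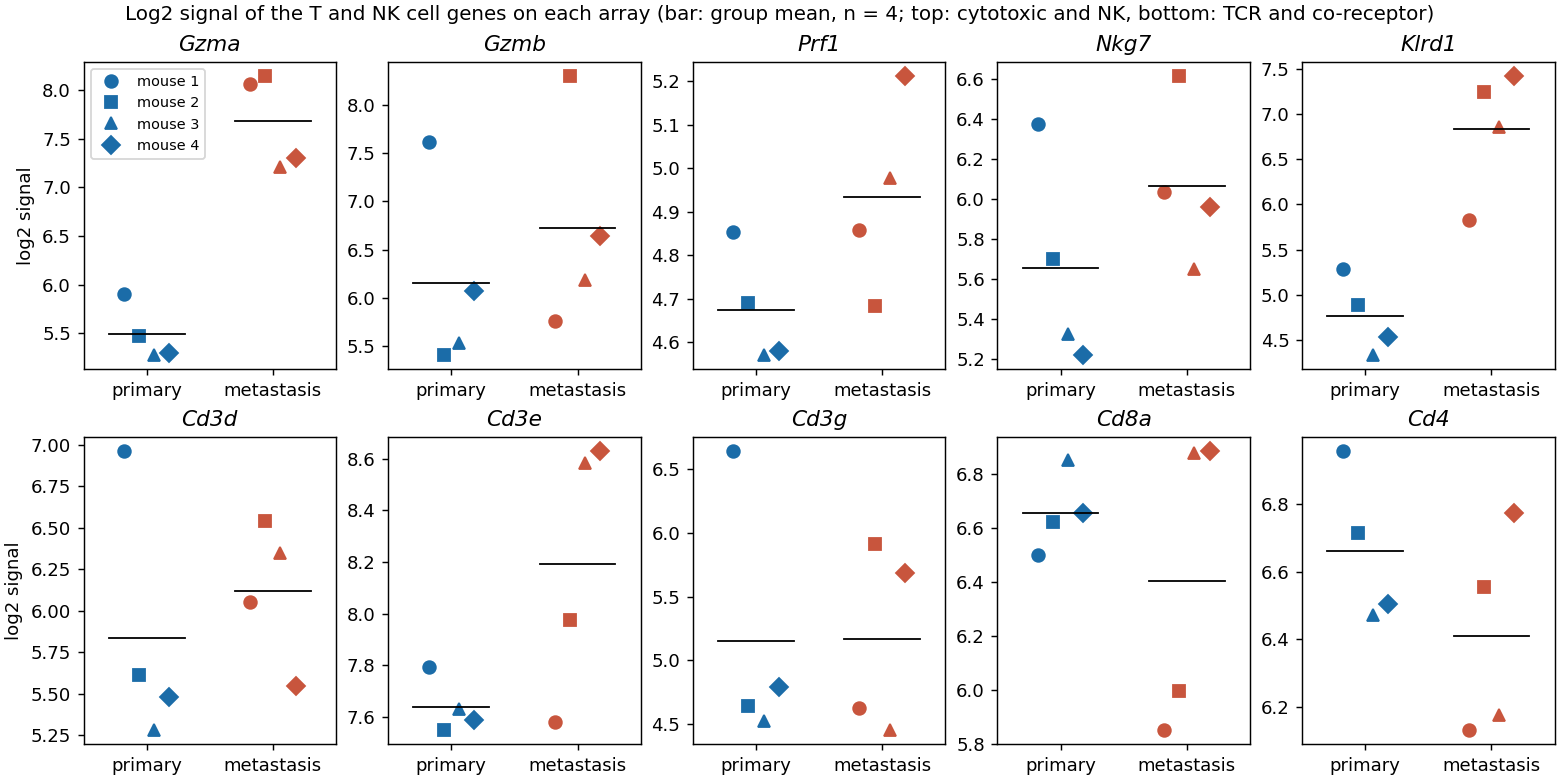
Log2 signal of each of the 10 genes on each array, with primary arrays on the left and metastasis arrays on the right of each panel, 1 marker shape per mouse and a bar at the group mean (n = 4); each panel has its own axis. Gzma and Klrd1 separate the tissues without overlap, and primary array 1 (circle) is the highest primary array for 9 of the 10 genes.

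Gzma encodes granzyme A, a tryptase-like granule protease of NK cells and cytotoxic T cells. Its log2 signals on primary arrays 1 to 4 were 5.90, 5.48, 5.28 and 5.30, and on metastasis arrays 1 to 4 they were 8.07, 8.14, 7.21 and 7.30. The lowest metastasis array lay above the highest primary array, and the groups did not overlap, which held toward higher metastasis values for 15.2% of all genes. The difference was 2.19 on the log2 scale (SE 0.27, limma adjusted p = 0.00139). Within mice it ran from 1.93 in mouse 3 to 2.67 in mouse 2. Without metastasis arrays 1 and 3, whose Krt8 signals were low, the difference was 2.23 (SE 0.30, limma adjusted p = 0.00808).

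Klrd1 encodes CD94, which pairs with NKG2 chains into receptors for the non-classical MHC molecule Qa-1 and is carried by NK cells and part of the cytotoxic T cells. It measured 5.29, 4.89, 4.33 and 4.54 on primary arrays 1 to 4 and 5.83, 7.25, 6.86 and 7.42 on metastasis arrays 1 to 4. The groups did not overlap, with metastasis array 1 the lowest of its group and only slightly above primary array 1 of the same mouse. The difference was 2.08 (SE 0.36, limma adjusted p = 0.00575), with 0.54 in mouse 1 and 2.36 to 2.89 in the other mice. The call was lost without mouse 3 (difference 1.93, SE 0.46, limma adjusted p = 0.0570), and without metastasis arrays 1 and 3 the difference was 2.58 (SE 0.28, limma adjusted p = 0.00484). The primary means of Gzma (5.49) and Klrd1 (4.76) lay under 5.57, the median over all named probe sets and arrays, so the size of both folds is not exact.

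Prf1, the gene of perforin, gave answers that depended on the probe set. The brighter probe set measured 4.85, 4.69, 4.57 and 4.58 in primary tumours and 4.86, 4.68, 4.98 and 5.21 in metastases, and its groups overlapped. Its difference was 0.26 (SE 0.16, limma adjusted p = 0.269). The dimmer probe set measured 4.22, 4.42, 4.16 and 4.36 in primary tumours and 5.09, 5.43, 4.65 and 5.03 in metastases, without overlap. Its difference was 0.76 (SE 0.18, limma adjusted p over 34945 probe sets = 0.0192), in a fit that called 8.72% of probe sets higher and 11.9% lower. On both probe sets every group mean lay under 5.57, so perforin was a dim signal in both tissues.

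Gzmb, which encodes granzyme B, an aspartate-cleaving protease that sets off apoptosis in target cells, did not part the tissues. It measured 7.61, 5.41, 5.53 and 6.07 on primary arrays 1 to 4 and 5.77, 8.30, 6.18 and 6.65 on metastasis arrays 1 to 4. In each tissue 1 array stood above the others, primary array 1 by 1.54 and metastasis array 2 by 1.65 over the next array. The difference between tissues was 0.57 with an SE of 0.64 (limma adjusted p = 0.542), and its 95% interval ran from -0.89 to 2.02. Within mice it ranged from -1.85 in mouse 1 to 2.89 in mouse 2. Without mouse 2 it was -0.21 (SE 0.54, limma adjusted p = 0.804).

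Nkg7, which encodes a membrane protein of cytotoxic granules, had the same highest arrays at smaller size. Its signals were 6.38, 5.70, 5.33 and 5.22 in primary tumours and 6.04, 6.62, 5.65 and 5.96 in metastases. The tissues overlapped, and the difference was 0.41 (SE 0.30, limma adjusted p = 0.349). It was negative in mouse 1 (-0.34) and between 0.33 and 0.92 in the other mice.

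**Figure D2:**
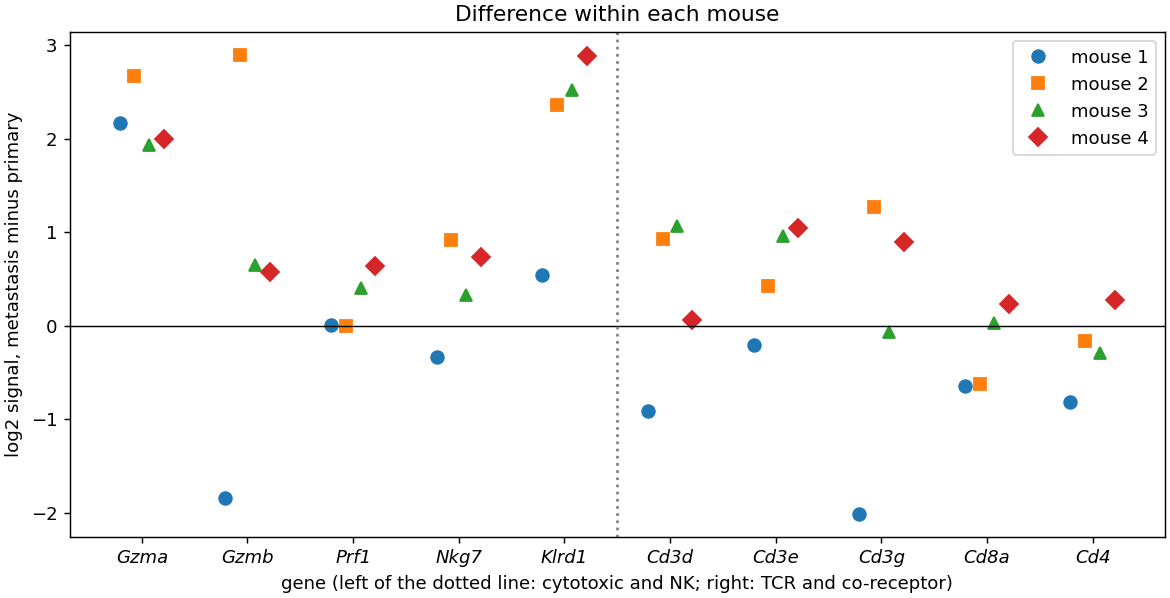
Difference in log2 signal between the metastasis and the primary tumour of each mouse, for the brightest probe set of each gene, with 1 marker per mouse. Gzma and Klrd1 lie above 0 in all 4 mice, and in mouse 1 Gzmb and Cd3g lie at -1.85 and -2.01.

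The CD3 chains Cd3d, Cd3e and Cd3g were all highest among primary tumours on array 1, Cd3e by only 0.16 over the next array. For Cd3d and Cd3g no metastasis array stood apart. Cd3d measured 6.96, 5.61, 5.28 and 5.48 in primary tumours and 6.05, 6.54, 6.35 and 5.55 in metastases, a difference of 0.29 (SE 0.38, limma adjusted p = 0.609). Cd3g measured 6.64, 4.64, 4.53 and 4.79 in primary tumours and 4.63, 5.91, 4.45 and 5.68 in metastases. Primary array 1 exceeded the next primary array by 1.35 for Cd3d and 1.85 for Cd3g. The group means of Cd3g were 5.15 ± 1.00 and 5.17 ± 0.73 (SD, n = 4 each), a difference of 0.02 (SE 0.53, limma adjusted p = 0.983) whose 95% interval ran from -1.19 to 1.23. This interval holds rises and falls of over 2-fold, so equal levels are not shown. The sign turned when primary replicate 2, 3 or 4, metastasis replicate 2 or 4, or mouse 2 or 4 was left out, with values down to -0.40. Without primary replicate 1 the difference of Cd3g was 0.52 (SE 0.38) and that of Cd3d 0.66 (SE 0.26), and neither passed the threshold (limma adjusted p = 0.398 and 0.128).

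Cd3e, the chain around which the CD3 dimers form, had a narrower range among primary tumours than its partners and another highest metastasis array. It measured 7.79, 7.55, 7.63 and 7.59 in primary tumours, a range of 0.24, and 7.58, 7.97, 8.58 and 8.63 in metastases. Metastasis arrays 3 and 4 were the high arrays, and these were also the arrays with the largest actin drops, 5.72 and 6.18. The brightest probe sets of Cd8a and Prf1 were also highest on these arrays, those of Gzma and Nkg7 were lowest, and the other members followed neither order. Whether the drop has a part in the signal of Cd3e or of these genes was not tested. The difference was 0.55 (SE 0.24, limma adjusted p = 0.142). It passed the threshold without metastasis replicate 1 (0.76, SE 0.19, limma adjusted p = 0.0280) and in mice 3 and 4 alone (1.00, SE 0.19, limma adjusted p = 0.0225), a subset chosen after seeing the data.

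Cd8a and Cd4, the co-receptor genes of cytotoxic and helper T cells, were not called on any probe set. The brightest of the 5 Cd8a probe sets, whose type can also bind related transcripts, measured 6.50, 6.62, 6.85 and 6.65 in primary tumours and 5.85, 6.0, 6.88 and 6.89 in metastases. Its difference was -0.26 (SE 0.27, limma adjusted p = 0.512), and the other 4 probe sets lay between -0.08 and 0.23. These 4 had group means between 4.21 and 4.94. Cd4 measured 6.96, 6.72, 6.47 and 6.50 in primary tumours and 6.13, 6.55, 6.18 and 6.77 in metastases on its brighter probe set. Its difference was -0.25 (SE 0.20, limma adjusted p = 0.380), and its other probe set gave 0.21 (SE 0.24). With scaling to the 75th percentile the differences of Cd8a and Cd4 turned to 0.058 and 0.061, so neither gene has a settled direction.

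**Figure D3:**
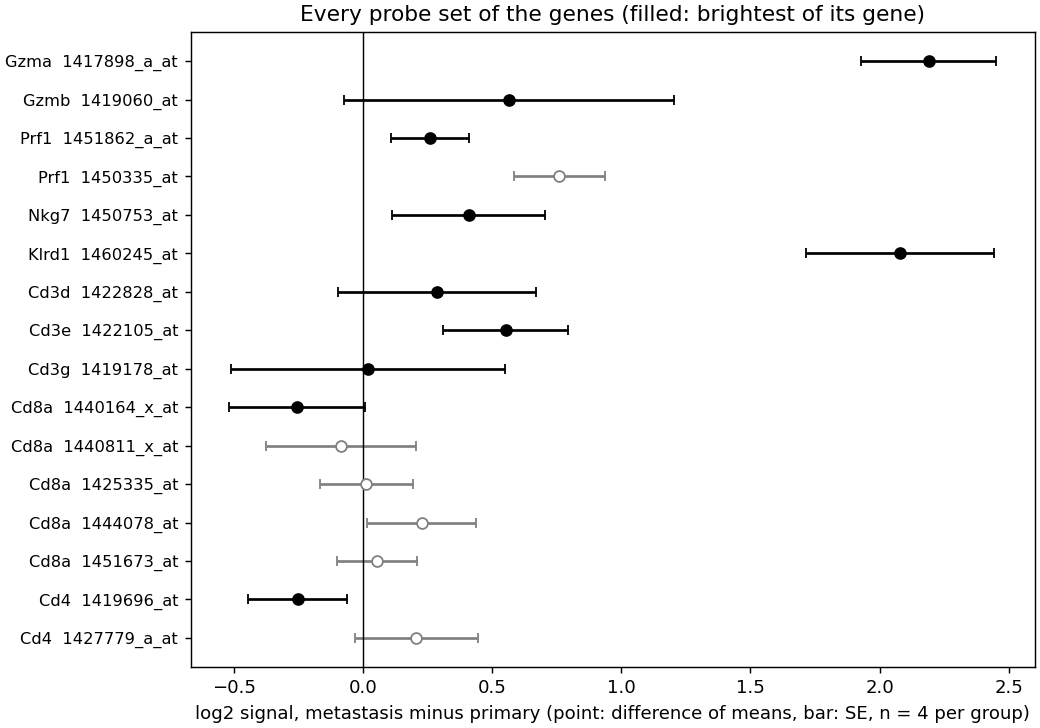
Difference in log2 signal, metastasis minus primary, for all 16 probe sets, with the SE as a bar (n = 4 per group) and the brightest probe set of each gene filled. The probe sets of Gzma and Klrd1 lie at 2.19 and 2.08, and those of Cd8a and Cd4 scatter between -0.26 and 0.23.

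The classes were also described by their mean deviation from the primary mean of each gene, a centring that sets the average over the primary arrays to 0. On primary array 1 the cytotoxic and NK class lay 0.66 and the T cell receptor and co-receptor class 0.58 above the primary mean on the log2 scale. On primary arrays 2 to 4 both classes lay between -0.34 and -0.12. On metastasis arrays 1 to 4 the cytotoxic and NK class lay at 0.76, 1.65, 0.83 and 1.16, and the other class at -0.34, 0.21, 0.10 and 0.31. Both classes were lower on metastasis array 1 than on array 2 or 4. Over the tissues the mean difference was 1.10 for the 5 cytotoxic and NK genes, 0.41 for the 3 of them that were not called (Gzmb, Prf1 and Nkg7) and 0.07 for the 5 T cell receptor and co-receptor genes. These class means are descriptions with no test.

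**Figure D4:**
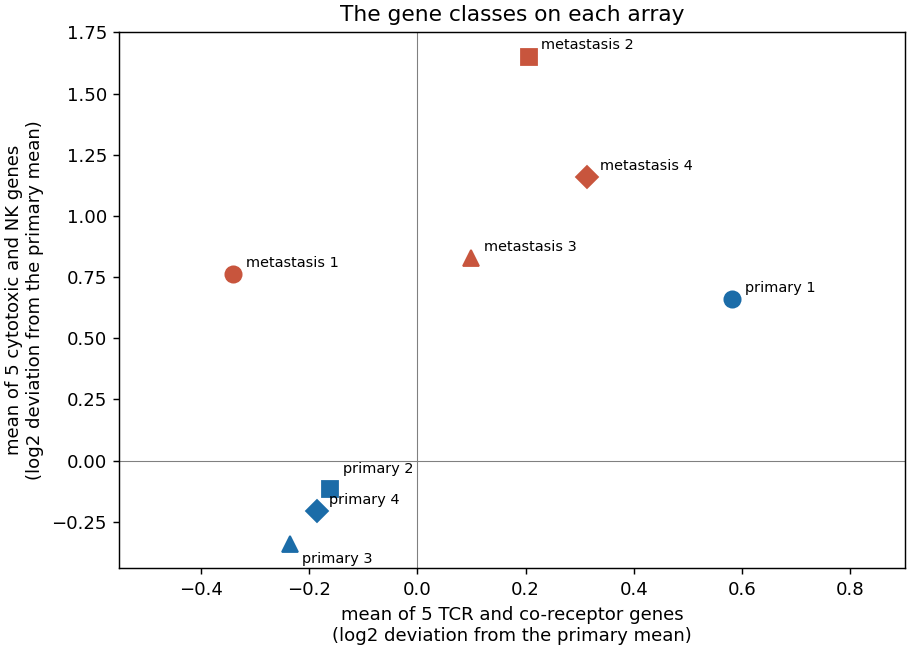
Mean log2 deviation from the primary mean of the 5 cytotoxic and NK genes (vertical) against that of the 5 T cell receptor and co-receptor genes (horizontal), with 1 point per array. Primary array 1 sits at 0.66 and 0.58, and all 4 metastasis arrays lie at 0.76 or higher on the vertical axis.

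Primary array 1 was the highest primary array for all 10 members except Cd8a. It was also highest for 16 of 23 measured genes of T cell receptor signalling, 9 of 14 of T lineage identity, 7 of 11 dendritic cell markers, 6 of 11 B cell markers and 10 of 20 genes of cytotoxic granules, but for 6 of 21 NK receptors and transcription factors and 0 of 11 macrophage markers. Over all genes the share was 31.5%. Metastasis array 2 was the highest metastasis array for 5 of the 10 members (Gzma, Gzmb, Nkg7, Cd3d and Cd3g). Over all genes its share was 21.2%. Metastasis array 4 was the highest for the other 5 members (Prf1, Klrd1, Cd3e, Cd8a and Cd4), and its share over all genes was not counted. Array 2 was also highest for 8 of 11 macrophage, 7 of 11 neutrophil and 6 of 11 dendritic cell markers. The same held for 9 of 17 recruiting chemokines, cytokines and ligands. These shares were looked at after the values were seen.

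T lineage identity genes included the largest differences among the other T and NK cell genes. Of 14 measured, 5 were higher, 1 was lower and 8 were not called, with a median of 0.72. The shares over all genes were 9.72% higher and 12.1% lower. Thy1, a surface glycoprotein of T cells that neurons and fibroblasts also carry in quantity, rose by 3.82 (SE 0.66, limma adjusted p = 0.00558). The chromatin organiser Satb1 rose by 3.21 (SE 0.66), the transcription factor Bcl11b, which T cells and neurons use, by 1.45 (SE 0.28) and Tox by 0.51 (SE 0.13). Gata3, which luminal mammary cells express as well as helper T cells, fell by 1.26 on the log2 scale, with limma adjusted p = 0.0393; it was named after its value was seen. Beside them 6 of 11 B cell markers were called higher, their mean log2 signal running from 5.74 to 5.98 on primary and from 7.71 to 9.85 on metastasis arrays. Among metastases the B cell mean was lowest on array 3, where Thy1 (12.43) and Bcl11b (7.81) were highest and Satb1 (8.15) was lowest. The part of B cells in the Thy1, Satb1 and Bcl11b signals was not tested.

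Of 23 measured genes of T cell receptor signalling 1 was higher, 1 was lower and 21 were not called, with a median of 0.28, beside 9.72% higher and 12.1% lower over all genes. Prkcq, the protein kinase C theta of the T cell synapse, rose by 1.52 (SE 0.27, limma adjusted p = 0.00617). Lcp2, the adaptor SLP-76, which macrophages and neutrophils express too, fell by 2.25 on the log2 scale, and Lat, the membrane adaptor it joins, had a difference of 1.19 (limma adjusted p = 0.0721). Beside them 9 of 11 macrophage markers were called lower, with a mean log2 signal of 11.24 to 12.14 on primary and 8.26 to 10.10 on metastasis arrays. Their part in the Lcp2 signal was not tested.

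Of 21 measured NK receptors and transcription factors 1 was higher, 2 were lower and 18 were not called, shares near those of all genes (9.72% and 12.1%), with a median of 0.03, and 14 of the 21 had a primary mean under 5.57. Eomes, a T-box transcription factor of NK cells and memory cytotoxic T cells, rose by 1.12 (SE 0.21, limma adjusted p = 0.00734), from 5.31 ± 0.16 to 6.43 ± 0.39 (SD, n = 4 each). Fcgr3, the low-affinity Fc receptor that NK cells share with macrophages, fell by 2.43 on the log2 scale, and Klrb1b by 1.08. Klrk1, which encodes the activating receptor NKG2D, lay at -0.44 (limma adjusted p = 0.0713). The NK-defining receptor Ncr1, looked at after the values were seen, lay at 4.39 ± 0.10 and 4.55 ± 0.27 (SD, n = 4 each), and Klrc1, the partner of CD94, at 3.49 ± 0.24 and 3.61 ± 0.17 (SD, n = 4 each). All of these means of Ncr1 and Klrc1 lay under 5.57, and neither gene was called.

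Other genes of cytotoxic granules gave 0 of 20 higher and 2 lower, with a median of -0.27. The 2 of 20 lower lie near the 12.1% of all genes called lower, and 9.72% of all genes were called higher. Ctsc, the protease that activates granzymes and also the serine proteases of neutrophils, fell by 2.31 on the log2 scale, and Stxbp2, which helps granules fuse, by 1.03 (limma adjusted p = 0.0268 and 0.0128). Gzmk, which encodes granzyme K, had a difference of 0.60 (limma adjusted p = 0.0563) and Gzmf one of -0.94 (limma adjusted p = 0.0778). No granzyme gene of this list was called in either direction.

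The list of chemokines, cytokines, ligands and chemokine receptors around T and NK cells held 17 measured genes, of which 7 were lower, 1 was higher and 9 were not called, with a median of -0.81. Over all genes 12.1% were lower and 9.72% higher, and the difference from them was not tested. One of the 7, Cd274, encodes the inhibitory ligand PD-L1 and fell by 2.28 on the log2 scale; it was named after its value was seen. Il15, the cytokine on which NK cells and memory cytotoxic T cells depend, fell by 2.10 on the log2 scale (SE 0.19, limma adjusted p = 0.000537), from 6.34 ± 0.35 to 4.25 ± 0.12 (SD, n = 4 each). Cxcl16, Cxcl11 and Cxcl10, ligands of receptors on activated T cells, fell by 3.03, 2.27 and 2.36 (limma adjusted p = 0.000937, 0.00101 and 0.00121). The macrophage values given above moved with these falls, and their part in them was not tested.

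**Figure D5:**
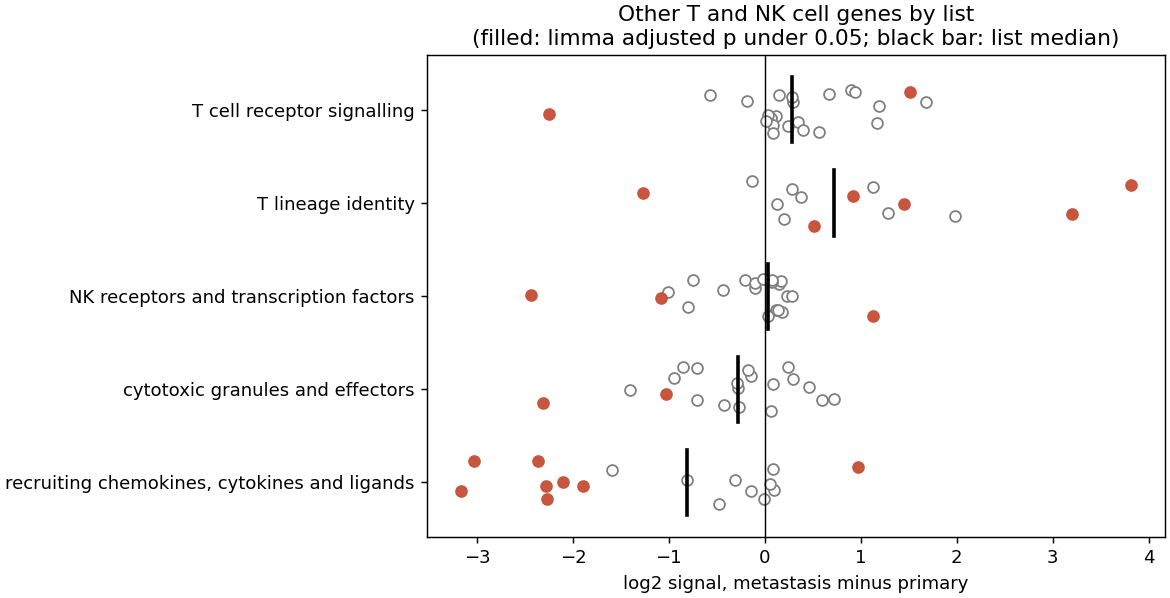
Difference in log2 signal, metastasis minus primary, of the measured genes of 5 lists around the T and NK cell genes, with called genes filled and the list median as a black bar; the vertical scatter within a list has no meaning. The medians run from 0.72 for T lineage identity to -0.81 for the recruiting chemokines, cytokines and ligands.

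Among the other cell types that could carry these transcripts, dendritic cell markers gave 4 of 11 higher and 1 lower. Their mean log2 signal was 6.40 to 7.06 on primary and 7.17 to 7.94 on metastasis arrays. For this list and those that follow, the shares over all genes were 9.72% higher and 12.1% lower. Siglech, a marker of plasmacytoid dendritic cells, rose by 1.27 (SE 0.14, limma adjusted p = 0.00114), and Ccr9, a homing receptor of the same cells and of T cells, by 4.82 (SE 0.46). Ly6d and Tcf4 rose by 1.77 and 1.16. Itgax, the marker called lower, fell by 1.49 on the log2 scale (limma adjusted p = 0.0439), and the other 6 dendritic cell markers were not called. Itgax was named after its value was seen. Neutrophil markers were higher in 8 of 11 cases, at 6.69 to 7.12 on primary and 9.75 to 10.73 on metastasis arrays. Basophil and mast cell markers gave 2 higher and 2 lower of 10 (5.66 to 6.62 against 5.76 to 6.72). The histidine decarboxylase gene Hdc and the basophil protease gene Mcpt8 rose by 3.69 and 2.13, and of the mast cell protease genes Cma1 fell by 1.87 and Tpsab1 fell by 2.43 on the log2 scale. Erythroid markers gave 0 calls in 8 (4.63 to 4.82 against 4.76 to 5.15), with 2 at an unadjusted p under 0.05 by limma. Epithelial markers were lower in 2 of 12 cases (7.67 to 8.48 against 6.09 to 7.70). The part of these cell types in the signals of Gzma and Klrd1 was not tested.

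Likeness to each class was measured as Pearson's r over the 8 arrays after each group mean was subtracted, among 11119 brighter genes. Arrays of a mouse are not independent and the genes were picked for a high r, so these are descriptions only. Nearest to the cytotoxic and NK class were Flt3 (r = 0.97), a receptor of dendritic cell and lymphoid precursors, the amino acid transporter Slc7a5 (r = 0.97) and Fam167a (r = 0.97). Nearest to the T cell receptor and co-receptor class were Tgfb2 (r = 0.98), Cenpv (r = 0.98) and Ccl5 (r = 0.98), a chemokine that activated T cells release. Ccl5 measured 12.71, 11.88, 11.57 and 11.67 in primary tumours and 10.64, 11.45, 11.08 and 11.41 in metastases, so that primary array 1 was again the highest and metastasis array 2 the highest of its group.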

How the data were processed

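The deposited values are log2 signals, 1 per probe set and array, made by the authors with RMA per the submitters' processing notes (version and array set not stated there). RNA was labelled after 2 rounds of amplification, per the labels' protocols. Of 45101 probe sets, 64 were controls, 34945 had 1 symbol, 932 several and 9160 none listed; only the 34945 were tested, and 0 symbols were updated through the GRCm38.p6 gene table. A gene was represented by its brightest probe set. Tests used limma 3.58.1 (lmFit and eBayes, R 4.3.3), two-sided, unpaired, with Benjamini-Hochberg adjustment over 18193 genes and a threshold of 0.05, with no filter. Arrays give no read depth; their number limits precision, and the median SE was 0.23. The code was tested on simulated data. Python 3.11.15 was used for sequences and figures.

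Same-numbered arrays came from the same mouse per the series' design text; correlations of their deviations from the group means were 0.17, 0.01, 0.02 and -0.11 across genes. Members and lists were chosen with earlier results of these data known. From each list at most the 4 genes with the smallest adjusted p were named (others are marked as chosen after their values were seen; Krt8 was given as a check of the label), and for each class the 3 most similar genes. Of 12 lists besides the members, genes without a single-symbol probe set were not analysed. Alternatives covered scaling, quantile normalization, a filter on dim genes, the probe set, the mouse as a block, array weights, an intensity trend and left-out arrays.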

Additional observations from a re-analysis of the deposited data

Results flagged for a closer look

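Cd3g on primary array 1 had a log2 signal of 6.642, against 4.789 on the next highest primary array. The gap took up 0.877 of the range of the 4 primary arrays, above Dixon's 95% critical value for 4 samples. It was the only one of 36 checks (the 16 probe sets and 2 control drops in each tissue) to pass, and chance alone passes about 1 in 20.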

How the results depend on the processing

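Gzma was called higher in every alternative except mice 1 and 2 alone, and Klrd1 in all but that one and the fit without mouse 3. With the replicate block (the mouse as a block) 1389 genes were higher and 1895 lower; Gzma and Klrd1 stayed called (limma adjusted p = 0.00447 and 0.0219) and no other member gained a call, so the pairing changed no call of a member. Scaling to the 75th percentile gave 3102 genes higher, and testing every probe set 3046 higher and 4168 lower. In mice 1 and 2 alone 0 genes were called higher and 0 lower by limma, and 0 members; at an unadjusted p under 0.05 there were 3539 genes and 2 members. Leaving out arrays or mice gave 697 to 2119 genes higher and 708 to 2719 lower, and 1 to 3 members higher. Members without a call changed sign as follows, and the cause was not tested. Cd3g lay at -0.088 after quantile normalization, at -0.40 to 0.70 with arrays or mice left out, and at -0.37 in mice 1 and 2. Gzmb ran from -0.21 to 1.37 with arrays or mice left out. Cd8a was 0.058 after scaling and 0.13 in mice 3 and 4. Cd4 was 0.061 after scaling, 0.21 on the most variable probe set and 0.0013 without metastasis arrays 1 and 3. Prf1 was called higher on the most variable probe set (0.76) and on the mean of its probe sets (0.51). Without scanner files, present or absent calls were not analysed here, so the dim signals have no detection limit.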

Other observations

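The values of 3 further genes of the lists are given here, chosen after they were seen; primary array 1 was the highest primary array for 31.5% of all genes. Foxp3, the transcription factor of regulatory T cells, measured 7.15, 5.45, 4.78 and 5.22 in primary tumours and 6.32, 7.49, 7.28 and 6.05 in metastases, and did not pass the test (difference 1.13, limma adjusted p = 0.165). Serpinb9, the intracellular inhibitor of granzyme B, measured 10.83, 8.89, 8.36 and 8.88 in primary tumours and 7.32, 8.63, 8.30 and 7.09 in metastases (difference -1.41, limma adjusted p = 0.109). Ctsw, a protease of cytotoxic cells, was higher in the metastasis of all 4 mice without a call (difference 0.72, limma adjusted p = 0.0804).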
